A study of Mus musculus with 4 samples.

Results

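Stromal cells that carried Cxcl14, Mgp, Gdf10 and Fmo2 were selected from single-cell RNA-seq of popliteal lymphatic vessels (PLVs) and the superficial saphenous vein (SSV) of the mouse hindlimb, which were dissected and digested together. A cell was taken when Dcn reached at least 20 unique molecular identifiers (UMIs) per 10000 UMIs of the cell, no Ptprc UMI was present, and the summed UMIs of Cxcl14, Mgp, Gdf10 and Fmo2 were at least 3 and at least 2 times those of Myoc, Pi16, Fndc1 and Pla1a. This gate took 905 of the 8879 cells of the WT and TNF-Tg libraries, and these are called gated cells below. Applied in the same way, it took 142 of 1504 cells of the tdT1 library and 78 of 454 cells of the tdT2 library. The series held 10837 cells in all.

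The WT library came from male wild-type C57BL/6J mice and the TNF-Tg library from male mice of the same background that carry a TNF transgene and develop chronic inflammatory arthritis. The labels gave an age of 9 months for both, and both were sorted on high forward and side scatter and as DAPI-negative live cells. The tdT1 and tdT2 libraries were a pair of sorts of tdTomato-positive cells from male and female Cspg4-Cre mice of a similar or higher age with the Ai9-tdTomato reporter, in which cells with present or past Cspg4-Cre activity are marked, whatever their type. Each library pooled the vessels of 3 mice, so that WT and TNF-Tg were 1 library each and had no replicate. Condition and library cannot be told apart between WT and TNF-Tg, and differences between them were therefore given with counting intervals and no test. Sequencing used a NextSeq for tdT1 and a NovaSeq for the other libraries.

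Totals were 14256192 UMIs in the tdT1 library, 2357031 in tdT2, 68773605 in the WT library and 37557627 in TNF-Tg. The gated cells carried 1471231, 426175, 4886103 and 4790649 of these UMIs, in the same order. Median UMIs per gated cell were 10646, 5353, 10380 and 10460, so the median depth was close in WT and TNF-Tg and lowest in tdT2. Median genes per gated cell were 2912.5 in WT and 2789 in TNF-Tg. Mitochondrial genes took 1.20% of the UMIs of gated cells in WT and 0.886% in TNF-Tg. Between pairs of libraries, 11 cell barcodes were shared, and none of them belonged to a gated cell. Predicted doublets were 4 of the gated WT cells and 5 of the gated TNF-Tg cells.

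As background, veins are wrapped by vascular smooth muscle cells (VSMCs) and collecting lymphatic vessels by lymphatic muscle cells (LMCs), which contract through actin, smooth muscle myosin and their partner proteins. Outside this muscle lies an adventitia of matrix-producing stromal cells that secrete collagens, proteoglycans, complement proteins and chemokines. Tumor necrosis factor (TNF) signals through receptors on such cells to NF-kB, a transcription factor that switches on chemokines, adhesion molecules and its own inhibitors.

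Cells led by Cxcl14, Mgp and Gdf10 have been labelled VSMCs, and cells led by Myoc, Pi16, Fndc1 and Pla1a have been labelled LMCs. The defining genes of contractile smooth muscle were at or near 0 in the gated cells, and the other contractile genes listed were low. The paper itself reported little Acta2, Myh11 and Tagln RNA in its muscle clusters, beside smooth muscle actin protein in the vessels. Its Acta2 reporter mice also gave little signal there. It proposes the low depth of droplet sequencing as a possible reason, which was not tested here. Acta2, the smooth muscle actin, had 2 UMIs over all 476 WT gated cells and 14 over all 429 TNF-Tg gated cells, which was 0.409 and 2.92 counts per 1000000 UMIs (CPM). Myh11, the smooth muscle myosin heavy chain, had 4 and 0 UMIs, and Cnn1, Actg2 and Myocd had none in either library. The 12 contractile genes together came to 68.0 CPM in tdT1, 72.7 in tdT2, 40.1 in WT and 71.4 CPM in TNF-Tg, with Smtn the most abundant of them (29.2, 30.5, 16.4 and 23.6 CPM). Myl9 (5.53 CPM in WT and 19.8 in TNF-Tg) and Tpm2 (11.5 and 17.3 CPM) followed it in these libraries. At 0 UMIs were 6 of the 12 genes in each tdT library, 3 in WT and 4 in TNF-Tg.

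Fibroblast genes were abundant in the same cells. A list of 12, which includes the collagens Col1a1, Col1a2 and Col3a1 and the receptor Pdgfra, summed to 24200 CPM in tdT1, 13999 in tdT2, 27830 in WT and 24156 CPM in TNF-Tg. Of 9 pericyte and mural genes, Pdgfrb, Abcc9 and Kcnj8 were the ones above 20 CPM in WT, at 87.4, 77.4 and 55.3 CPM. Cspg4 itself stood at 3.40 CPM in tdT1, 9.39 in tdT2, 3.68 in WT and 1.04 CPM in TNF-Tg. Endothelial genes summed to between 1.04 CPM in TNF-Tg and 18.8 CPM in tdT2. The contractile genes listed thus go against the name VSMC, and the cells are named here by their gate. Cald1 and Tpm1, which the paper used together with Pdgfrb to define its muscle cells, were not among the genes listed. Cells taken by the mirror gate (Myoc, Pi16, Fndc1 and Pla1a at 3 UMIs or more and at least 2 times the other 4 genes) are called LMC-type after their label only, since their Acta2 was also near 0, at 0.255 CPM in WT. Against these, 2 of 3 mural genes compared were at least 2-fold higher in gated cells of WT and TNF-Tg, and 0 were lower. Over all genes compared, 2.28% were higher and 4.1% lower. The 1 contractile gene compared was lower (log2 ratio -3.70). Cst3, which the paper took as a product of VSMCs, was higher in gated cells (1.95 ± 0.54, SD, n = 4 libraries).

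**Figure D1:**
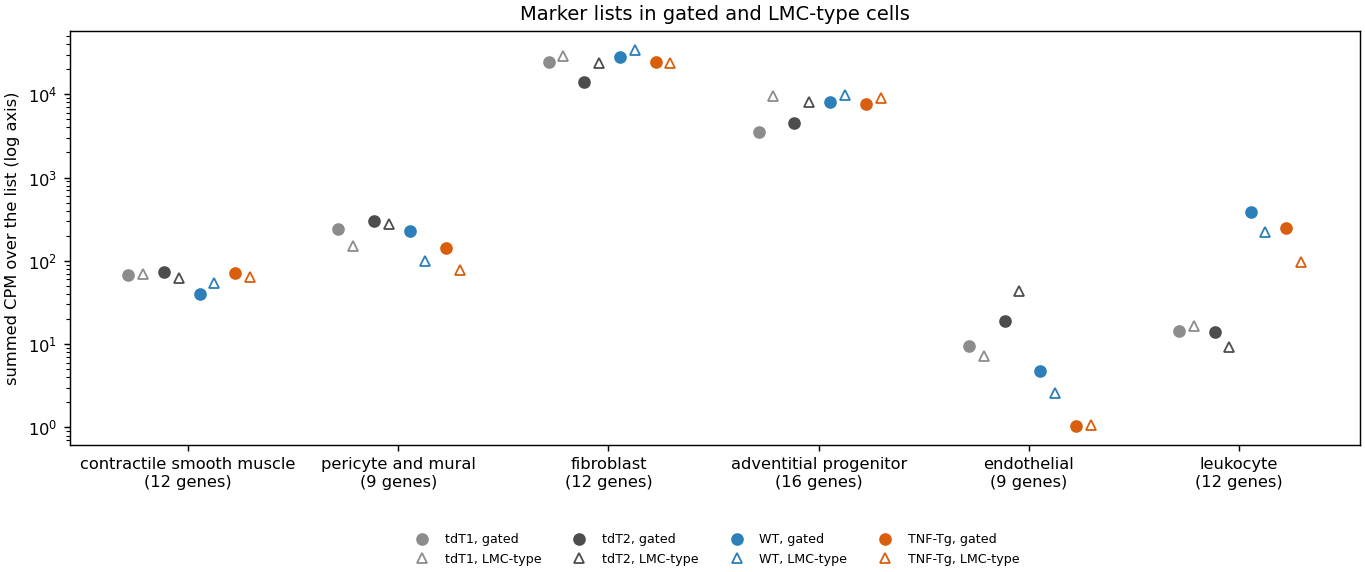
Summed CPM (log axis) of 6 marker lists in gated cells (filled circles) and LMC-type cells (open triangles), with 1 point for each of the 4 libraries. In gated cells the fibroblast list lay between 13999 and 27830 CPM in the 4 libraries and the contractile smooth muscle list between 40.1 and 72.7 CPM.

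Gated cells made up 8.67% of the WT cells (476 of 5488, exact 95% binomial interval 7.94% to 9.45%) and 12.7% of the TNF-Tg cells (429 of 3391, 11.6% to 13.8%). Their share was 9.44% in tdT1 (8.01% to 11.0%) and 17.2% in tdT2 (13.8% to 21.0%). The 2 tdT sorts thus differed from each other by more than WT and TNF-Tg did. Among stromal cells, meaning those that passed the Dcn and Ptprc steps, the share was 22.01% in WT (476 of 2163) and 39.1% in TNF-Tg (429 of 1097). The log2 ratio of the library shares, TNF-Tg over WT, was 0.54 (0.35 to 0.74). It came to 0.08 when Cxcl14 was left out of the gate, which left 400 WT and 262 TNF-Tg cells. These intervals cover counting error only, and the sort on scatter can set such shares.

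The gate used Cxcl14, Mgp, Gdf10 and Fmo2 to choose the cells, so their levels are given as a description, with no test. Cxcl14, a chemokine of epithelia and stroma, stood at 1381 CPM in tdT1, 1607 in tdT2, 1515 in WT and 3545 CPM in TNF-Tg. Mgp, matrix Gla protein and an inhibitor of calcification, stood at 1007, 1917, 895 and 525 CPM in the same order. Gdf10, a ligand of the bone morphogenetic protein (BMP) family, stood at 897, 591, 981 and 298 CPM. Cxcl14 was highest in TNF-Tg, where Mgp, Gdf10 and the flavin monooxygenase Fmo2 were lowest. Cxcl14 was the leading gate gene in 31.9% of WT and 73.7% of TNF-Tg gated cells, against 33.8% in tdT1 and 37.2% in tdT2. Gdf10 led in 29.2% of WT and 5.36% of TNF-Tg gated cells. All 4 genes were detected together in 46.6% of WT and 21.9% of TNF-Tg gated cells.

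**Figure D2:**
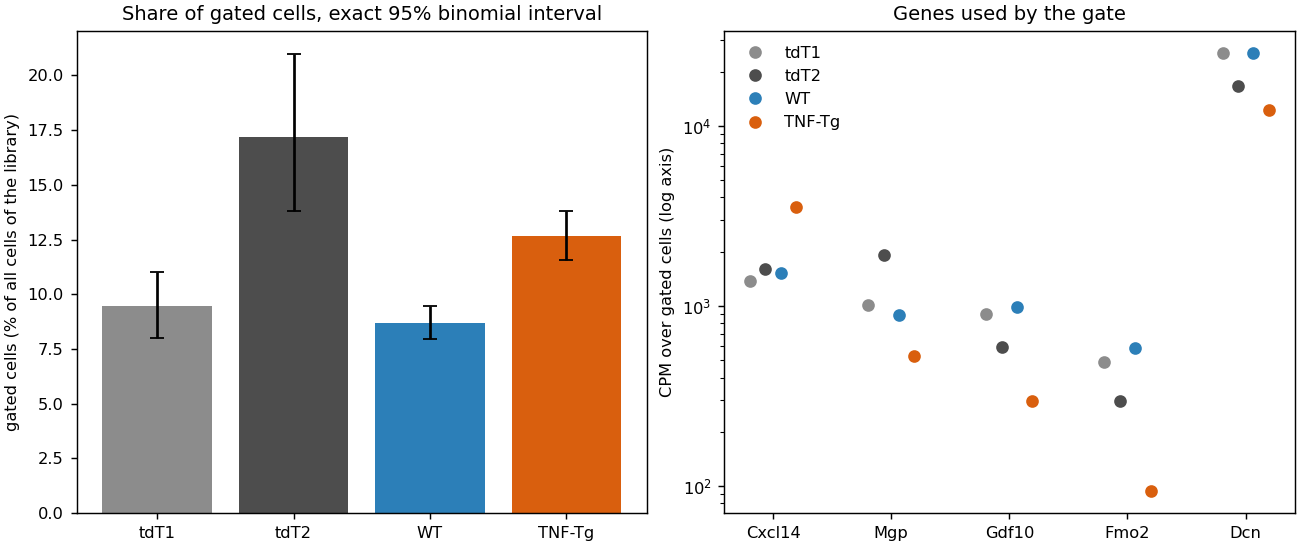
Left, gated cells as a percentage of all cells of each library, with exact 95% binomial intervals. Right, CPM over gated cells (log axis) of Dcn and the 4 genes whose sum the gate sets, with 1 point a library, as a description of genes the gate used. TNF-Tg had the highest Cxcl14 (3545 CPM) and the lowest Mgp, Gdf10, Fmo2 and Dcn of the 4 libraries.

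Some cells lay at the edges of the gate. Just inside, 22 WT and 27 TNF-Tg cells had 3 or 4 summed UMIs of the 4 genes, and just outside, 27 WT and 23 TNF-Tg cells had 1 or 2. The ratio to the LMC-type genes lay between 2 and 3 in 29 WT and 32 TNF-Tg gated cells, whereas 73 WT and 45 TNF-Tg cells missed the gate with a ratio between 1 and 2. Dcn was between 20 and 40 UMIs per 10000 in 5 WT and 19 TNF-Tg gated cells. Of cells that passed the other steps, 1 Ptprc UMI kept out 9 in WT and 4 in TNF-Tg, and more than 1 kept out 19 and 16.

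Relative to LMC-type cells of the same library, gated cells were richer in Hopx, in tissue factor (F3), in the basement membrane collagens Col4a1, Col4a2 and Col15a1 and in the niche signals Cxcl12, Kitl and Ccl19. They were poorer in the fibroblast gene Fn1 and in Dpp4 and other genes of adventitial progenitors. The gate chose both kinds of cell from the same libraries, so these differences have no test. Of 5317 genes at 20 CPM or more in either kind of cell in both WT and TNF-Tg, 121 (2.28%) were at least 2-fold higher in gated cells in both libraries and 218 (4.1%) were at least 2-fold lower. The 10 genes of the gate were left out. In the tdT libraries, gated with the same genes, 111 of the 121 and 209 of the 218 kept their sign in both, and 75 and 146 were again at least 2-fold apart in both.

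F3, tissue factor, which starts blood coagulation, stood at 454 CPM in tdT1, 852 in tdT2, 411 in WT and 258 CPM in TNF-Tg gated cells. In LMC-type cells it stood at 66.0, 132, 15.6 and 29.3 CPM in the same order, and its log2 ratio was 3.33 ± 0.94 (SD, n = 4 libraries). Every library had more of it in its gated cells than any library had in its LMC-type cells. Hopx, a homeodomain protein without DNA binding of its own, had the highest ratio at 5.83 ± 1.82 and was detected in 38.9% of WT and 34.3% of TNF-Tg gated cells. After thinning of each cell to 3000 UMIs it was detected in 23.4% and 12.7% of them, against 0% and 0.184% of LMC-type cells, although Ptprc-positive cells also carried it (10.3% and 25.5%). Adcyap1r1, the receptor of the neuropeptide PACAP, differed by nearly the same amount in every library (3.55 ± 0.22). The melanocyte antigen Mlana (3.73 ± 1.14), the sarcoglycan Sgcd (3.59 ± 0.70), the small GTPase regulator Arhgdib (3.51 ± 0.68) and Id4 (2.83 ± 0.61), an inhibitor of helix-loop-helix factors, were also among the 15 highest. Arhgdib was higher still in Ptprc-positive cells (602 CPM in WT and 893 in TNF-Tg, against 137 and 195 CPM in gated cells), and the leukocyte list summed to 389 CPM in WT gated and 222 CPM in WT LMC-type cells. Its part in the result was not tested.

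**Figure D3:**
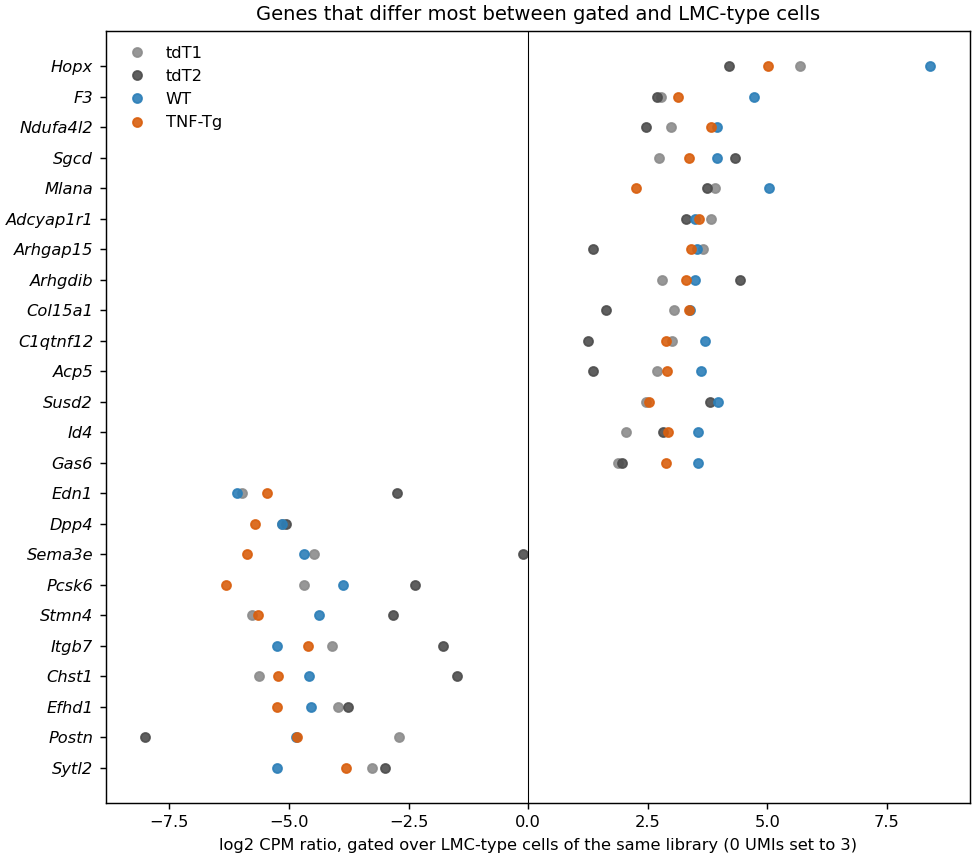
Log2 ratio of CPM in gated over LMC-type cells of the same library for 14 of the genes with the highest and the 10 with the lowest mean ratio in WT and TNF-Tg, with 1 point for each of the 4 libraries. A count of 0 was set to 3 UMIs. All 24 genes drawn kept their sign in all 4 libraries, although Sema3e was near 0 in tdT2, where gated cells had 0 UMIs of it.

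Of 12 genes compared of the basement membrane, the sheet of matrix beneath endothelium and around muscle, 3 were higher and 3 lower (median -0.09). For this and the lists below, 2.28% of all genes compared were higher and 4.1% lower. Col15a1 (log2 ratio 2.86 ± 0.83), Col4a2 (1.67 ± 0.59) and Col4a1 (1.44 ± 0.58) were the higher ones, whereas Nid1, Lamb1 and Lamc1 were lower. Of the small leucine-rich proteoglycans, Bgn (2.37 ± 0.34), Podn and Lum (1.51 ± 0.64) were higher and Ogn and Aspn lower. Of 10 niche factors compared, 4 were higher, namely Ccl19 (1.80 ± 0.69), Cxcl12 (1.73 ± 0.66), which retains blood cell progenitors, Kitl (1.91 ± 0.60), the ligand of the receptor Kit, and Vcam1 (1.85 ± 0.73), and Tslp was lower. The lipoprotein Apoe (2.08 ± 0.30), the secreted binding protein Igfbp7 (2.71 ± 0.33) and the opioid precursor Penk (2.40 ± 0.39) were also higher, Apoe also being abundant in Ptprc-positive cells (14640 CPM in WT). Of 16 mesenchymal transcription factors compared, Nr2f2 (3.06 ± 0.67), Meox2 (2.40 ± 0.72) and Csrp2 were higher and Osr2 and Ebf3 lower. Csrp2 was called in WT (1.71) and TNF-Tg (1.35) but stood at 0.68 in tdT1 and -0.71 in tdT2.

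The genes that were lower included Dpp4, a surface peptidase of adventitial progenitors, which had 8.16 CPM in tdT1, 0 in tdT2, 9.62 in WT and 4.38 CPM in TNF-Tg gated cells. LMC-type cells had 287, 235, 339 and 230 CPM, so the library sums of the 2 kinds of cell did not overlap. After thinning, 59.7% of WT LMC-type cells and 1.22% of WT gated cells had a UMI of it. Edn1, endothelin-1, a strong constrictor of vessels, had 4.30 CPM in WT gated cells and 292 CPM in WT LMC-type cells. Efhd1 (-4.38 ± 0.67), a calcium-binding protein, and Sytl2 (-3.83 ± 1.01), which acts in vesicle traffic, were lower in every library too, Sytl2 with 0 UMIs in tdT2 gated cells. Postn, periostin, a matrix protein of growing connective tissue, ranged from 0 CPM in tdT2 to 86.3 CPM in tdT1 in gated cells, but 87.4% of the tdT1 UMIs lay in 1 of the 6 cells that carried it. In LMC-type cells it ranged from 241 CPM in WT to 1818 CPM in tdT2. Of 16 adventitial progenitor genes, 14 could be compared, and 9 were lower in gated cells and 0 higher. Their median log2 ratio was -2.03, against -0.13 over all genes compared, of which 4.1% were lower. LMC-type cells were chosen for Myoc, Pi16, Fndc1 and Pla1a, and gated cells for little of these. Genes that accompany them in a cell thus tend to be lower in gated cells by this choice, and the count is a description. Dpp4 was under 20 CPM in gated cells of WT and TNF-Tg and entered the comparison through LMC-type cells alone. The 9 lower adventitial progenitor genes included Anxa3 (-3.47 ± 0.48), Cd55 (-3.11 ± 0.36) and Ackr3 (-2.58 ± 0.52). Fn1, fibronectin, had a log2 ratio of -2.13 ± 0.57 and Col14a1 one of -3.45 ± 0.35. No gene of the interferon, glycolysis, MHC or endoplasmic reticulum chaperone lists was called in either direction in this comparison.

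TNF-Tg gated cells had more Il33 than WT gated cells, more of the chemokines Ccl19 and Ccl7 and more of 12 of 14 cholesterol synthesis genes compared. Ccl2 was higher too, but its log2 ratio was 1.98 in cells led by Cxcl14 and -0.43 in those led by Mgp, Gdf10 or Fmo2. TNF-Tg gated cells had less of 6 of 12 glucocorticoid-response genes and 4 of 8 small leucine-rich proteoglycans. The MHC class II genes H2-Aa, H2-Ab1, H2-Eb1 and Cd74 were lower too, but Cd74 was at 2.72 CPM in tdT1 and 0 in tdT2 gated cells, single cells held 35.7% of its WT and 64.6% of its TNF-Tg UMIs, and 12 leukocyte genes summed to 389 CPM in WT and 249 in TNF-Tg. Of 5744 genes at 20 CPM or more in either library, 226 (3.93%) were at least 2-fold higher in TNF-Tg and 543 (9.45%) at least 2-fold lower, and these are called higher and lower from here on. The counting interval lay wholly beyond 2-fold for 123 of the higher and 234 of the lower genes. The median log2 ratio was -0.10, and after centring on it the counts were 313 higher and 408 lower, so the excess of lower genes depended in part on scaling. The tdT libraries come from other mice, sexes and sorts, and their levels are given beside WT as the spread between libraries without the transgene.

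Il33, an alarmin cytokine held in the nucleus of stromal cells, stood at 27.9 CPM in tdT1, 46.9 in tdT2, 16.0 in WT and 454 CPM in TNF-Tg. The log2 ratio of TNF-Tg over WT was 4.83 (4.50 to 5.17), and TNF-Tg was far above all other libraries. LMC-type cells differed in the same direction, with 36.4 CPM in WT and 241 in TNF-Tg. It was detected in 7.14% of WT and 59.0% of TNF-Tg gated cells, and after thinning to 3000 UMIs in 4.63% and 42.6%, against 0.407% and 1.33% of Ptprc-positive cells. Thinning left out 66 WT and 44 TNF-Tg gated cells that were shallower. Cthrc1, a secreted protein of collagen-producing cells, went from 17.6 CPM in WT to 183 CPM in TNF-Tg and stood at 4.76 CPM in tdT1 and 0 in tdT2. Chl1, a cell adhesion molecule of the L1 family, was at 2.87 CPM in WT and 100 in TNF-Tg, and no UMI of it was found in the gated cells of tdT1 or tdT2, which allows up to 2.04 and 7.04 CPM (3 UMIs). In the thinned cells Chl1 was detected in 0.732% of WT and 16.6% of TNF-Tg gated cells. Neither gene was particular to gated cells. In LMC-type cells Chl1 went from 1.32 CPM in WT to 207 in TNF-Tg, and Cthrc1 from 11.4 to 63.1 CPM.

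The highest ratio belonged to Ecscr, a surface protein described in endothelium, with 2 UMIs in WT and 318 in TNF-Tg gated cells (log2 ratio 7.34, 5.48 to 10.39). The ratio ranged from 4.56 to 8.28 over the other ways of processing that were tried, with the lowest value in cells without leukocyte UMIs, and in some of them that of Ptx3 (5.62, range 3.32 to 9.32) was higher. The TNF-Tg UMIs of Ecscr came from 117 of the 429 TNF-Tg cells, whose endothelial genes summed to 1.04 CPM, and LMC-type cells carried Ecscr in WT as well (35.01 CPM) and in TNF-Tg (104 CPM). Igfbp3, which binds insulin-like growth factors, was higher in TNF-Tg (47.6 CPM) than in WT (3.68 CPM) but highest in tdT1 (509 CPM) and tdT2 (289 CPM). Likewise Ifitm1, a member of a family of related membrane proteins, had 8.39 CPM in WT and 77.2 in TNF-Tg but 185 CPM in tdT2, where 45.6% of its UMIs lay in 1 cell. WT was the lowest library at both genes.

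The genes with the lowest ratios had varied roles. Itgbl1, an integrin-like secreted protein, stood at 76.8 CPM in tdT1, 86.8 in tdT2, 343 in WT and 47.2 CPM in TNF-Tg (log2 ratio -2.86, -3.07 to -2.66). Ramp1, which forms the receptor of the vasodilator CGRP together with Calcrl, stood at 24.5, 4.69, 124 and 17.1 CPM. Acsbg1, an acyl-CoA synthetase, stood at 4.08, 4.69, 48.3 and 3.97 CPM. In all 3 genes WT was well above the other libraries, the tdT libraries included. Slc16a9, a transporter of the monocarboxylate family, differed from this, since it stood at 51.7, 35.2 and 65.9 CPM in tdT1, tdT2 and WT and at 7.10 CPM in TNF-Tg (-3.21, -3.77 to -2.70). Alcam, an adhesion molecule, likewise had 14.95 CPM in tdT1, 23.5 in tdT2, 42.4 in WT and 4.17 CPM in TNF-Tg. At another 5 genes WT was again the library that stood highest, and the tdT libraries lay well below it. Fam107a stood at 14.3 CPM in tdT1, 4.69 in tdT2, 40.9 in WT and 2.50 CPM in TNF-Tg (-4.03), and Comp at 8.16, 2.35, 41.8 and 4.38 CPM (-3.25). Cyp2e1 (-3.93), Angpt4 (-3.00) and P2ry6 (-2.99) were between 20.1 and 22.3 CPM in WT, between 0 and 7.04 CPM in the tdT libraries and between 1.46 and 2.71 CPM in TNF-Tg.

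Some of the highest ratios rested on single cells. Of 157 Ccl5 UMIs in TNF-Tg gated cells, 98.1% lay in 1 cell, and without it TNF-Tg had 3 and WT 3, which leaves no call. Of the UMIs of Saa3, an acute-phase protein, 59.6% lay in 1 of the 15 cells that carried it, and its log2 ratio was 5.45 with and 4.83 without the top cell of each library. In LMC-type cells Saa3 went from 1.53 CPM in WT to 369 in TNF-Tg. Among the lower genes, 61.5% of the WT UMIs of Retnla, a product of alternatively activated macrophages, came from 1 cell. In TNF-Tg 1 cell held 85.5% of them, and the Retnla ratio was -3.20 with and -4.61 without these cells. By contrast, the top cell held 4.37% of the Il33 UMIs and 4.21% of the Cthrc1 UMIs in TNF-Tg. Of the 30 genes named for their ratio, 26 stayed within their counting interval when the top cell of each library was left out.

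**Figure D4:**
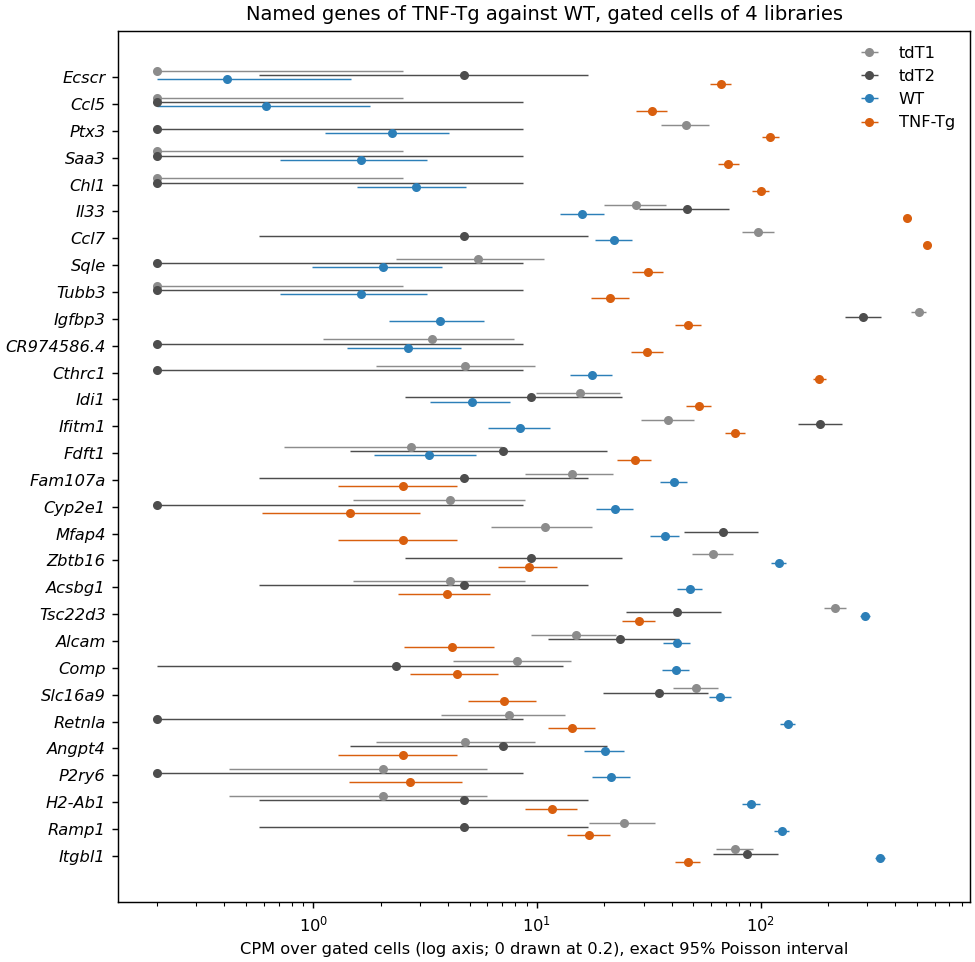
CPM over gated cells (log axis, 0 drawn at 0.2) with exact 95% Poisson intervals in the 4 libraries, for the 15 genes with the highest and the 15 with the lowest ratio of TNF-Tg over WT among those called. Il33 and Ccl7 lie in TNF-Tg at 454 and 556.5 CPM, above every other library, whereas Igfbp3 and Ifitm1 lie higher in tdT2 than in TNF-Tg.

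Of 16 chemokines listed, 10 could be compared, and 5 were higher and 0 lower, with a median log2 ratio of 1.58, where 3.93% of all genes compared were higher, 9.45% were lower and the median was -0.10. Ccl19, which draws lymphocytes and dendritic cells through the receptor Ccr7, had the highest level of the 5, at 25.8 CPM in tdT1, 150 in tdT2, 166 in WT and 1238 CPM in TNF-Tg (log2 ratio 2.90, 2.79 to 3.00). It was found in 48.5% of WT and 84.6% of TNF-Tg gated cells, and after thinning in 28.8% and 71.4%, against 0.518% and 1.71% of Ptprc-positive cells. LMC-type cells differed in the same direction (30.1 CPM in WT and 246 in TNF-Tg). Mouse has near-identical copies of Ccl19, so the count may be shared with them. Ccl7, which attracts monocytes, stood at 97.9 CPM in tdT1, 4.69 in tdT2, 22.1 in WT and 556.5 CPM in TNF-Tg (log2 ratio 4.65, 4.38 to 4.95). Ccl2, its close relative, stood at 26.5, 21.1, 20.5 and 130 CPM in the same order, and 63.0% of its WT UMIs and 23.8% of its TNF-Tg UMIs lay in 1 cell each. The Ccl2 ratio was 1.98 in cells led by Cxcl14 and -0.43 in those led by Mgp, Gdf10 or Fmo2. At Ccl19, Ccl7 and Ccl2 TNF-Tg was at least 2-fold above each other library. Cxcl1, which attracts neutrophils, was at 24.97 CPM in WT and 113 in TNF-Tg (2.17, 1.89 to 2.47), yet at 546 CPM in tdT1, a library in which immediate-early genes were also raised (32312 CPM summed over 17 genes, against 5724 CPM in WT and 5090 in TNF-Tg). The remaining called gene was Ccl5, described above. Cxcl12 (0.66), Cxcl13 (0.99) and Ccl11 (0.02) stayed below 2-fold.

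Of 25 genes of the TNF and NF-kB response, 17 could be compared and 4 were higher and 0 lower, with a median log2 ratio of 0.61. Over all genes compared, 3.93% were higher and 9.45% lower. Sod2, the mitochondrial superoxide dismutase, stood at 49.6 CPM in tdT1, 70.4 in tdT2, 40.1 in WT and 144 CPM in TNF-Tg (log2 ratio 1.84, 1.61 to 2.08). Bcl3, an NF-kB partner protein, stood at 16.99, 11.7, 12.7 and 40.9 CPM. Sod2 and Bcl3 were the 2 of these 4 genes at which TNF-Tg exceeded each other library at least 2-fold. Tnfaip6, a hyaluronan-binding protein, had 70.6 CPM in WT and 180 in TNF-Tg but 395 CPM in tdT1. Vcam1, an adhesion molecule for leukocytes, had 26.0 CPM in WT and 52.4 in TNF-Tg, a log2 ratio of 1.01. The inhibitor Nfkbia (0.27), the subunits Nfkb1 (-0.47) and Rela (-0.42) and the TNF receptor Tnfrsf1a (0.61) were not called.

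Of the 9 genes called higher in the chemokine and NF-kB lists, Cxcl1 and Sod2 were the ones whose promoter held a match to the NF-kB consensus before the start, and these are shown because of that match. Bcl3 had a match past its start, Tnfaip6 and Ccl19 had none, and the other 4 had no window in the table. The sequences are printed as the RefSeq entries of GRCm38.p6 give them, on the plus strand and 5′ to 3′. Capitals mark the match, which was found on both strands in each and lies 71 to 61 bases before the Cxcl1 start (chr5:90891114-90891244) and 83 to 74 bases before the Sod2 start (chr17:13007696-13007825).
Cxcl1: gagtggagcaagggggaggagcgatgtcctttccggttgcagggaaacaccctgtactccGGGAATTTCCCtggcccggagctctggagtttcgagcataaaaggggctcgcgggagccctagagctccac
Sod2: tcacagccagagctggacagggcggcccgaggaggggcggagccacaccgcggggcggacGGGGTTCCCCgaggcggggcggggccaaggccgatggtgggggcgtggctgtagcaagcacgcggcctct
In windows of 250 bases before to 50 bases after the start, the consensus was present in 4.51% of 32851 windows. It was present in 8.76% of 217 windows of higher genes, 5.27% of 531 windows of lower genes and 5.16% of 5040 windows of genes called neither way. Of the 25 NF-kB list genes, 21 had a window and 10 held a match, and of the 16 chemokines, 10 had a window and 4 held one. Of these 14 genes with a match, Bcl3, Sod2 and Cxcl1 were called, and the other 11 were not called or were too low to compare. Such a match describes the letters in the window and does not show a bound site.

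Genes of cholesterol synthesis formed a second group, listed only after their values had been seen, so that their count is a description. Of 24 genes, 14 could be compared and 12 were higher and 0 lower, with a median log2 ratio of 2.51, where 3.93% of all genes compared were higher. Their summed level was 344 CPM in tdT1, 357 in tdT2, 233 in WT and 789 CPM in TNF-Tg. At 7 of the 12 genes TNF-Tg was at least 2-fold above each other library, and at 3 of them WT was at least 2-fold below each other library.

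Hmgcs1, the synthase at the head of the pathway, stood at 33.3 CPM in tdT1, 28.2 in tdT2, 13.9 in WT and 76.2 CPM in TNF-Tg (log2 ratio 2.45, 2.08 to 2.85). Fdps, which makes farnesyl diphosphate, stood at 10.2, 25.8, 16.2 and 104 CPM (2.69, 2.34 to 3.05). Sqle, squalene epoxidase, stood at 5.44, 0, 2.05 and 31.3 CPM (3.94, 3.02 to 5.02). All 3 were highest in TNF-Tg. LMC-type cells had the same order for Hmgcs1 (24.3 CPM in WT and 96.8 in TNF-Tg) and Fdps (17.9 and 121 CPM).

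The promoter of Hmgcs1 (chr13:119690154-119690282, plus strand, RefSeq GRCm38.p6) is shown because it held the sterol response element TCACNCCAC, in capitals, 137 to 129 bases before the start.
Hmgcs1: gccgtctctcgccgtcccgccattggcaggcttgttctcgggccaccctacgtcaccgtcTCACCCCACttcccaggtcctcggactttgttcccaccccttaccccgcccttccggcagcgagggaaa
Searched on both strands, these letters were present in 1.24% of all 32851 windows, in 1.84% of windows of higher genes, in 1.51% of windows of lower genes and in 0.933% of the others. Hmgcs1 was the only match among the 17 list genes that had a window.

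Of 12 glycolysis genes compared, 3 were higher, 0 lower and 9 not called, with a median of 0.75. Of all genes compared, 3.93% were higher and 9.45% lower. Ldha, lactate dehydrogenase A, stood at 98.6 CPM in tdT1, 122 in tdT2, 138 in WT and 425 CPM in TNF-Tg. Gapdh stood at 203, 268, 394 and 893 CPM, and Eno1 at 34.7, 68.0, 57.7 and 146 CPM. TNF-Tg was at least 2-fold above each other library at all 3. Of the metal-binding proteins, Mt2 stood at 1063, 141, 561 and 1940 CPM and was higher, whereas Mt1 (0.98) was just under 2-fold, and the zinc carrier Slc39a14 was at 18.6 CPM in WT and 56.99 in TNF-Tg.

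Matrix genes moved in both directions, where 3.93% of all genes compared were higher and 9.45% lower. Of 8 small leucine-rich proteoglycans compared, 0 were higher and 4 lower (median -1.17), namely Podn, Omd, Aspn and Ecm2. Podn, an inhibitor of smooth muscle growth, stood at 302 CPM in tdT1, 197 in tdT2, 243 in WT and 95.4 CPM in TNF-Tg. Of 17 collagen and elastic fibre genes compared, Col6a3 (1.10) was higher, and Mfap4 (-3.89), Lox (-1.86), Fbln5 (-1.45) and Fbln1 (-1.15) were lower. Lox, which cross-links collagen and elastin, stood at 141, 61.0, 173 and 47.6 CPM. Of the 12 fibroblast genes, Thy1 (1.38) was higher, Fn1 (-1.39) was lower and 10 were not called. The fibrillar collagens Col1a1 (-0.31), Col1a2 (-0.38) and Col3a1 (0.51) were not called. Fn1 stood at 1506, 683, 2124 and 810 CPM, which makes it lower in TNF-Tg than in WT but not than in tdT2.

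Timp1, which inhibits matrix metalloproteinases, stood at 45.5 CPM in tdT1, 61.0 in tdT2, 224 in WT and 911 CPM in TNF-Tg (log2 ratio 2.02, 1.93 to 2.12). Mmp3, stromelysin, stood at 557, 626.5, 788 and 1997 CPM (1.34, 1.29 to 1.40). Both were more than 2-fold above every other library in TNF-Tg. Before thinning, a UMI of Timp1 was found in 88.8% of TNF-Tg and 70.2% of WT gated cells. For Mmp3 these shares were 89.5% and 53.8%. The inhibitors Timp2 (-1.31), Timp3 (-1.12) and Cst3 (-1.10) and the membrane metalloproteinase Mmp14 (-1.38) were lower. Of the joint lubricant genes, Prg4, lubricin, stood at 23.1, 28.2, 190 and 637 CPM and was found in 33.2% of WT and 73.0% of TNF-Tg gated cells (21.0% and 59.7% after thinning, against 1.41% and 2.40% of Ptprc-positive cells). The hyaluronan synthase Has1 stood at 168 CPM in tdT1, 30.5 in tdT2, 8.39 in WT and 31.1 CPM in TNF-Tg (1.89), so that WT was the lowest library and TNF-Tg lay near tdT2. Has2 stood at 76.1, 30.5, 178 and 36.7 CPM (-2.28), with WT the highest.

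Of 12 targets of the glucocorticoid receptor compared, 6 were lower and 0 higher (median -1.03), against 9.45% and 3.93% of all genes compared. Zbtb16, a transcriptional repressor, stood at 61.2 CPM in tdT1, 9.39 in tdT2, 120 in WT and 9.18 CPM in TNF-Tg (log2 ratio -3.71, -4.19 to -3.27). Tsc22d3, an anti-inflammatory leucine zipper protein, stood at 216, 42.2, 292 and 28.6 CPM (-3.35, -3.62 to -3.1). In both cases tdT2 lay nearer to TNF-Tg than to WT or tdT1. Both were also lower in TNF-Tg LMC-type cells, with log2 ratios of -3.11 for Zbtb16 and -2.13 for Tsc22d3. Fkbp5, a chaperone of the receptor, stood at 52.3, 23.5, 141 and 44.0 CPM. Errfi1, an inhibitor of the EGF receptor, stood at 1098, 427, 829 and 167 CPM, and Klf9 at 780, 286, 372 and 128 CPM, and at these 2 genes TNF-Tg was at least 2-fold below each other library. The receptor gene Nr3c1 was not called (-0.55). Summed over 14 genes, the list had 4283, 1596, 2585 and 1042 CPM, so that the tdT libraries, neither of which carried the transgene, differed from each other by more than WT and TNF-Tg did.

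Of 17 complement and acute-phase genes compared, Saa3 was higher and 4 were lower, among them C7 (-2.47), C2 (-1.18) and C4b (-1.04). The shares over all genes compared were 3.93% higher and 9.45% lower. C4b has a closely similar neighbour and its count may be shared. C7, part of the membrane attack complex, stood at 358 CPM in tdT1, 291 in tdT2, 1110 in WT and 201 CPM in TNF-Tg. C3 (0.44), on which the complement pathways converge, was not called. Gas6, the ligand of the TAM receptors, stood at 1255, 1591, 4184 and 970 CPM, so that WT rather than TNF-Tg stood apart from the tdT libraries.

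BMP and TGF-beta genes had 0 higher and 5 lower of 17 compared (median -0.70), which were the ligands Bmp4 and Tgfb3, the receptor Bmpr2 and the BMP antagonists Chrdl1 and Nbl1. Of 8 Wnt genes, 2 were lower. Beside both lists, 3.93% of all genes compared were higher and 9.45% lower. Sfrp2, a Wnt antagonist, stood at 147 CPM in tdT1, 11.7 in tdT2, 507 in WT and 81.8 CPM in TNF-Tg, and Dkk3 at 42.8, 113, 50.1 and 10.2 CPM. Dkk3 was at least 2-fold below every other library and Sfrp2 was not. In the lists of oxidation and lipid handling, Inmt, an amine methyltransferase, stood at 1868, 889, 1457 and 213 CPM, and Apod, a lipocalin, at 4254, 2199, 3660 and 947 CPM, and both were lower than in each other library at least 2-fold. Cyp7b1, which hydroxylates oxysterols, and Rdh10, which makes retinal, were higher, from 3.48 to 23.4 CPM and from 6.96 to 34.9 CPM.

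Of 9 MHC genes compared, H2-Aa, H2-Ab1, H2-Eb1 and Cd74, all of class II presentation, were lower, where 9.45% of all genes compared were lower. Cd74, their invariant chain, stood at 2.72 CPM in tdT1, 0 in tdT2, 191 in WT and 33.6 CPM in TNF-Tg, and WT was highest at all 4 genes. Ptprc-positive cells carried 11732 CPM of Cd74 in WT and 4409 CPM in TNF-Tg. The 12 leukocyte genes summed to 14.3 CPM in tdT1, 14.1 in tdT2, 389 in WT and 249 CPM in TNF-Tg gated cells. Of the 8 that could be compared, Lyz2, S100a8 and C1qb were lower and 5 were not called, with Fcer1g at 0.62 and Tyrobp at -0.02. In cells led by Cxcl14, H2-Ab1 had a ratio of -1.98, Lyz2 one of -0.10 and Fcer1g one of 1.11. In those led by Mgp, Gdf10 or Fmo2 the ratios were -4.30, -3.31 and -1.34, in the same order. Outside the list, Csf1r (1.11), Mrc1 (1.35), Pf4 (1.48, but 0.35 without the top cell of each library), Srgn (1.06) and Csf2rb (2.55), genes of myeloid cells named after their values were seen, were higher in TNF-Tg gated cells. Lyz2, the lysozyme of myeloid cells and the most abundant of them in WT, stood at 115 CPM in WT and 34.4 in TNF-Tg gated cells, against 8743 and 9363 CPM in Ptprc-positive cells, and none of the 12 was at 0 in either library. In TNF-Tg the most abundant was Fcer1g (45.1 CPM, and 29.3 in WT). Their part in the result was not tested. Among the 150 WT and 248 TNF-Tg gated cells without any UMI of the 12 genes, 263 genes were higher and 563 lower, of which 170 and 374 were among the 226 and 543. The log2 ratio of H2-Ab1 was -2.31 in these cells and -2.95 in all gated cells.

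**Figure D5:**
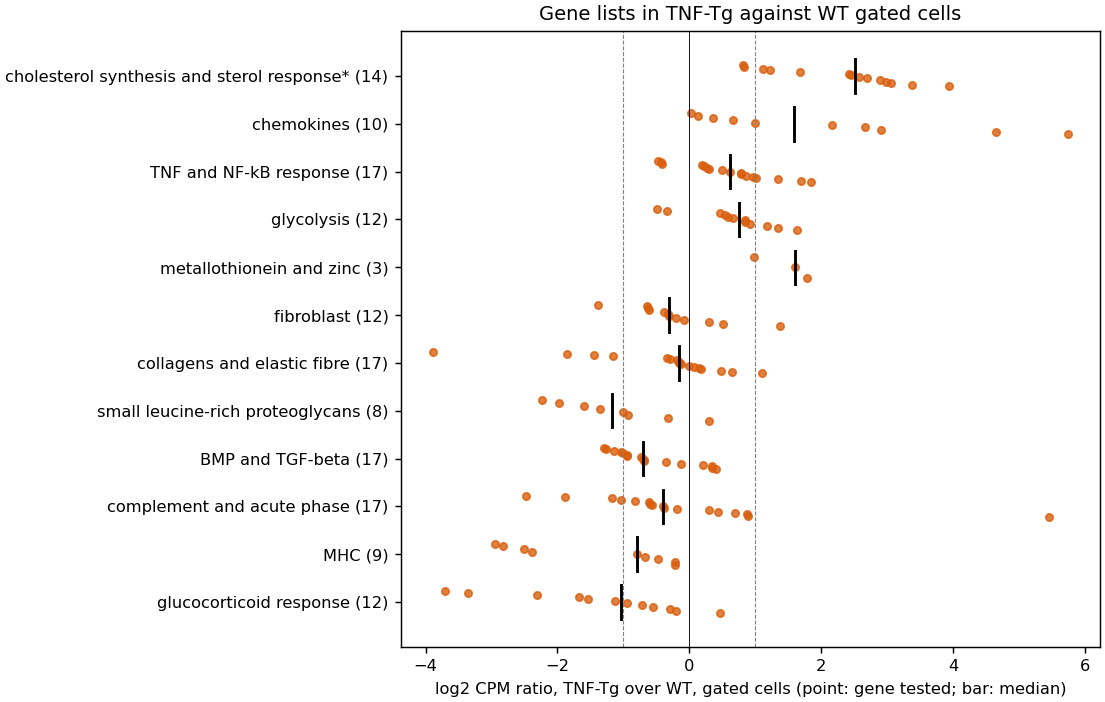
Log2 CPM ratio of TNF-Tg over WT gated cells for the genes compared in 12 lists (points), with the list median (bar) and dashed lines at 2-fold; the number of genes is in parentheses and the star marks the list made after values were seen. Medians ran from 2.51 for cholesterol synthesis to -1.17 for small leucine-rich proteoglycans.

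With all 4 libraries, 5713 of the compared genes were listed in every matrix. TNF-Tg was at least 2-fold above each of WT, tdT1 and tdT2 at 108 genes (1.89%) and at least 2-fold below each at 223 genes (3.9%). The tdT1 matrix listed 31053 features and the others 32287, and tdT1 was counted with another Cell Ranger version. Levels of some genes in tdT1 may therefore not be comparable. Nme2, among the 108, had 4.08 CPM in tdT1 but 1061 in tdT2 and 1326 in WT, and the reason was not tested. At 53 of the lower genes it was WT that lay at least 2-fold above every other library, and at 17 of the higher genes WT lay at least 2-fold below. Other lists had few calls, where 3.93% of all genes compared with WT were higher and 9.45% lower. Of 13 endoplasmic reticulum chaperone and stress genes 1 was lower, of 17 immediate-early genes 1 was higher (Ier3, 1.70) and 1 lower (Hspa1a, -1.53, which has a near-identical copy), and of 11 interferon-response genes 1 was higher. Of 81 ribosomal protein genes 3 were higher, and of 87 nuclear respiratory chain genes 8 were higher, with medians of 0.32 and 0.67.

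Since Cxcl14 led in more gated cells of TNF-Tg, the differences were also read within cells led by the same genes, leaving out ties. There were 152 WT and 316 TNF-Tg cells led by Cxcl14, and 293 WT and 99 TNF-Tg cells led by Mgp, Gdf10 or Fmo2. Il33 went from 20.2 to 508 CPM in the first set and from 14.5 to 229 CPM in the second. Zbtb16 went from 129 to 9.08 CPM and from 114 to 10.8 CPM, and Timp1 from 206 to 904 CPM and from 224 to 986 CPM. Ccl19 went from 228 to 1386 CPM and from 135 to 648 CPM. Of all 226 higher genes, 123 were at least 2-fold higher in both sets, 81 in the cells led by Cxcl14 alone, 17 in the others alone and 5 in neither. Of the 543 lower genes, 320 were at least 2-fold lower in both sets, 100 in the cells led by Cxcl14 alone, 91 in the others alone and 32 in neither. Several calls reached 2-fold in the cells led by Cxcl14 and not in the others. Their log2 ratios in that set and in the other were 1.98 and -0.43 for Ccl2, 5.72 and -0.20 for Saa3, 2.15 and -0.28 for Slc39a14, and 1.93 and -2.45 for Has1. Likewise they were 1.28 and 0.34 for Tnfaip6, 1.04 and 0.23 for Vcam1, 1.85 and 0.77 for Mt2, 1.94 and 0.94 for Sod2, 1.39 and 0.47 for Thy1, 1.02 and 0.70 for Vegfd, and 1.24 and 0.11 for Col6a3. Among lower genes they were -1.65 and -0.50 for Bmp4, -1.35 and -0.80 for Fbln1, -1.32 and -0.95 for Timp2, -1.03 and -0.68 for Timp3, and -1.31 and -0.99 for C4b. C2 (-0.90 and -0.82), Chrdl1 (-0.91 and -0.82), Nbl1 (-0.94 and -0.60) and Cst3 (-0.95 and -0.70) were under 2-fold in both sets. Mmp3 went from 573 to 2099 CPM in cells led by Cxcl14 and from 949 to 1524 CPM in the others, where its log2 ratio of 0.68 was under 2-fold. Ptx3, a soluble pattern recognition protein, went from 1.68 to 137 CPM in the first set and stayed at 2.76 and 2.39 CPM in the second. In LMC-type cells Ptx3 went from 14.3 CPM in WT to 179 in TNF-Tg. Igfbp3 went from 5.05 to 18.9 CPM in gated cells led by Cxcl14 and from 3.101 to 171 CPM in the others. Retnla stayed at 18.5 and 16.9 CPM in cells led by Cxcl14 and went from 209 to 3.59 CPM in the others. The leading gene was itself used by the gate, and these sets were formed as a description.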

How the data were processed

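PLVs and the SSV were profiled by 10x Genomics 3′ single-cell RNA-seq in 4 libraries. The deposited values were UMI counts by gene and cell barcode, produced by the authors using Cell Ranger (3.1.0 for tdT1 and 6.0.1 for the other libraries per the matrix headers) on mm10 per the submitters' processing notes, limited to called cells and not normalized. The notes also name Seurat 4.0.3. No further cells were removed. Analyses used Python 3.11.15, numpy 2.4.6, scipy 1.17.1, pandas 2.3.3, scanpy 1.11.5 (Scrublet doublet prediction) and matplotlib 3.10.9.

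UMIs were summed over the gated cells of a library and scaled to 1000000 (CPM). Genes entered at 20 CPM or more, a call was a ratio of at least 2-fold, and a count of 0 was set to a floor of 3 UMIs. Ratios of TNF-Tg over WT carry exact conditional binomial intervals, CPM exact Poisson intervals and shares exact Clopper-Pearson intervals, all at 95%. They cover counting error only, since 1 library a condition allows no p-value. Thinning drew 3000 UMIs per cell (seed 42). The code was tested on simulated counts, which checks the arithmetic of the calls and not the spread between libraries. Scrublet marked 0.266% of tdT1, 0% of tdT2, 2.50% of WT and 2.18% of TNF-Tg cells. Genes were named as members of listed groups, as the 15 highest and 10 or 15 lowest ratios among called genes, and as the 10 most abundant genes, leaving out mitochondrial, ribosomal protein and predicted genes and the 10 gate genes. A few genes that this rule names are not reported here. Listed symbols that the matrices give to more than 1 gene ID were read from the ID with nearly all of their UMIs. The gated cells and the gene lists were chosen with earlier results of these data known. The cholesterol list and the settings without the top cell, without Cxcl14 and without leukocyte UMIs were chosen after seeing the data. Promoter windows came from RefSeq (GRCm38.p6).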

Additional observations from a re-analysis of the deposited data

Results flagged for a closer look

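For 4 called genes the TNF-Tg over WT ratio had the opposite sign in gated and LMC-type cells, and the difference was not tested. This count took only genes at 20 CPM or more in LMC-type cells of either library, with a minimum ratio there. Genes too low there were left out, among them Mlana (-1.72 in gated and 1.06 in LMC-type cells, where it had 2.04 CPM in WT and 4.27 in TNF-Tg). Thy1, a surface glycoprotein of fibroblasts, had a log2 ratio of 1.38 in gated cells (21.9 CPM in WT and 56.99 in TNF-Tg) and -1.80 in LMC-type cells (105 and 30.1 CPM). Within gated cells it was 1.39 in those led by Cxcl14 and 0.47 in those led by Mgp, Gdf10 or Fmo2. Igfbp3 had 3.69 and -0.83. Chrdl1, a BMP antagonist, had -1.0 (381 and 190 CPM) and 1.02 (36.4 and 73.9 CPM). Pf4, a platelet and macrophage chemokine, had 1.48 and -1.69, but 67.6% of its 475 TNF-Tg UMIs lay in 1 gated cell, without which the ratio was 0.35.

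The reporter transcript Tdtomato, outside the comparisons above, was listed for tdT2 and gave 54.0 CPM in gated cells (23 UMIs), with a UMI in 19 of 78 cells (24.4%, 15.3% to 35.4%). It gave 80.5 CPM in LMC-type and 26.6 CPM in Ptprc-positive cells of the same library (12.4% of 145 cells), and 0 UMIs in the gated cells of WT and TNF-Tg, which allows up to 0.614 and 0.626 CPM.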

How the results depend on the processing

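No paired analysis was possible because WT and TNF-Tg were 1 library each. A filter at 10 CPM gave 188 genes higher in gated than in LMC-type cells (121 at 20 CPM). A filter at 50 CPM gave 142 higher and 278 lower genes for TNF-Tg over WT, and 65 and 125 for gated over LMC-type cells. With no filter beyond 3 UMIs the counts were 809, 1836, 616 and 611. With the WT or the TNF-Tg library alone, gated over LMC-type cells gave 172 to 253 higher and 339 to 385 lower genes, and asking for 2-fold in tdT1 and tdT2 too left 75 higher genes. The log2 ratio of gated shares was 0.83 over stromal cells and 0.08 without Cxcl14 in the gate. Fewer or more genes or cells enter by construction in each of these.

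Other totals, thinning, stricter gates, doublet removal and cell filters gave 197 to 323 higher and 408 to 617 lower genes for TNF-Tg over WT. Of the original 226 and 543, thinned cells called 173 and 376 and the mean of each cell's CPM called 166 and 380, the fewest among these settings. Without Cxcl14 in the gate, 242 were higher and 723 lower, of which 190 and 488 were among the original calls. For the 30 genes named for their TNF-Tg over WT ratio and the 25 named for gated over LMC-type cells, values were compared over all settings of this section. Within their error stayed 432 values of TNF-Tg over WT and 399 of gated over LMC-type cells, 46 and 51 did not, and none changed sign. The error was the counting interval for TNF-Tg over WT, and the SD of the WT and TNF-Tg ratios for gated over LMC-type cells. A CPM filter leaves the ratio of a gene as it is, so those values count as unchanged by construction. The same holds for gated over LMC-type cells with a single library or with 2-fold asked for in tdT1 and tdT2. Other genes of the lists were not rerun one by one. Ccl5 gave no value without predicted doublets (3 UMIs in each library) or in cells without leukocyte UMIs. Gated tdT2 cells, with 426175 UMIs in all, limit what can be read near 0 there, since 3 UMIs equal 7.04 CPM.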

Other observations

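Among the most abundant transcripts of the gated cells outside the gate, Gsn, which severs actin filaments, stood at 28496 CPM in tdT1, 24229 in tdT2, 24495 in WT and 11390 CPM in TNF-Tg. The nuclear RNA Malat1 stood at 21048, 29446, 24595 and 11112 CPM in the same order. Both were at least 2-fold lower in TNF-Tg than in WT, Gsn also than in tdT1 and tdT2, whereas Malat1 lay less than 2-fold below tdT1. Tmsb10, which binds actin monomers, stood at 1496, 4383, 3545 and 8262 CPM and was higher than in WT (log2 ratio 1.22), but less than 2-fold above tdT2. Fth1, the ferritin heavy chain, had 28991 CPM in WT and 28430 in TNF-Tg, a log2 ratio of -0.03.

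Of 8 compared genes for vascular growth factors and tone, Vegfd, a ligand of the lymphatic receptor VEGFR-3, was higher in TNF-Tg, with 85.6 CPM in tdT1, 30.5 in tdT2, 64.1 in WT and 129 CPM in TNF-Tg, less than 2-fold above tdT1. Its log2 ratio was 1.02 in cells led by Cxcl14 and 0.70 in the other set. Over all genes compared, 3.93% were higher and 9.45% lower. Penk, which encodes enkephalins, was lower, at 415, 317, 672 and 213 CPM. Ece1, which activates endothelin, was lower too, at 152, 110, 90.3 and 41.3 CPM, and was the only one of these 3 to lie at least 2-fold below every other library, with ratios of -1.17 and -0.98 in the same 2 sets.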
